A study of Mus musculus with 12 samples.

Results

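This set holds 10 protein-coding genes in 3 stretches of mouse chromosome 17, out of 12809 genes in the expression table and 607 tested genes on that chromosome. They were chosen by name because, in these same libraries, their transcript levels had been seen to differ between FlipFlop and B6 mice within each T cell lineage. The strain differences below are therefore descriptions of the genes chosen, with no test. Genes less than 3 Mb apart were treated as 1 run, which gave a run of 3 genes at chr17:5941280-7011299 (Synj2, Tagap1 and Rnaset2b), a run of 5 genes at chr17:23736186-26090337 (Paqr4, Kremen2, Prss41, Gnptg and Decr2) and a run of 2 genes at chr17:35681567-36129692 (Ddr1 and Gm19684), all in GRCm38. The runs are 1.07, 2.35 and 0.448 Mb long, with 16.7 and 9.59 Mb between them.

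Bulk RNA was sequenced from T cells that had been sorted as CD4 or CD8 from the lymph nodes (LN) of female mice. Both kinds of cells came from C57BL/6 (B6) mice of 10 weeks and from FlipFlop mice of 14 weeks, which gave 4 groups of 3 libraries. On both copies of chromosome 6, FlipFlop mice carry an altered Cd4 locus that encodes CD8 proteins (Cd4CD8) and an altered Cd8 locus that encodes CD4 protein (Cd8CD4). The altered Cd4 locus came from 8in4 mice, made in B6 embryonic stem cells, and the altered Cd8 locus from 4in8 mice, made in embryonic stem cells of strain 129. The control mice carry neither altered locus. Strain and age changed together, so their parts in a FlipFlop difference cannot be told apart. The labels do not say whether the 3 libraries of a group came from separate mice, so that p-values measure only the spread between these libraries, which may be technical.

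Each lineage is represented in both strains by cells with opposite coreceptors, so that the strains were compared within the helper and within the cytotoxic lineage. A strain difference in a single lineage is thus also a difference in coreceptor. The parts of strain, age and coreceptor in it cannot be told apart. B6 CD4 and FlipFlop CD8 T cells make up the helper lineage, in which Zbtb7b, the gene of the helper factor ThPOK, was measured at 162 to 203 CPM, against 1.16 to 2.79 CPM in the cytotoxic lineage, made up of B6 CD8 and FlipFlop CD4 T cells. CPM here are read counts relative to the reads of a library, scaled by the library's TMM factor, which corrects for its composition. All 8 T cell markers examined were present, with summed levels of 4736 to 6967 CPM. A library held 26570285 to 33115728 reads on the listed genes, so that the 3 reads which a count of 0 still allows for corresponded to 0.0857 to 0.120 CPM. This floor covers counting error only. In bulk samples fewer expressing cells and less RNA per cell cannot be told apart.

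In inbred mice, neighbouring genes are inherited together, and the DNA around them can differ between strains in both sequence and gene content. Chromosome 17 carries the t complex in its proximal part and, farther along, the H2 complex, whose class I genes encode proteins that present peptides to T cells or are recognised by receptors of NK cells. Several gene families there have near-identical copies, whose reads are difficult to assign to a single copy. The genes described belong to unrelated pathways, among them inositol lipid turnover, lysosomal enzyme sorting, fatty acid oxidation and collagen sensing.

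Of the 10 genes, 4 (Synj2, Tagap1, Prss41 and Gm19684) were higher and 6 (Rnaset2b, Paqr4, Kremen2, Gnptg, Decr2 and Ddr1) lower in FlipFlop T cells, in the same direction in both lineages. The libraries of the 2 strains did not overlap for 10 of 10 genes in either lineage, a count that the choice of genes fixed and from which nothing is read. Among all 11595 tested genes, 43.6% had no overlap in the helper lineage, 32.4% in the cytotoxic lineage and 15.2% in both with the same direction, 7.24% higher and 8% lower in FlipFlop. The median size of the strain difference over the 10 genes was 1.25 on the log2 scale in the helper lineage and 1.36 in the cytotoxic lineage, beside 0.215 and 0.137 over all tested genes. Differences on the log2 scale are of log2(CPM + 0.5) and understate the change of genes with low values. All 10 genes passed the filter of at least 1 CPM in at least 3 libraries. Kremen2 passed through B6 libraries only, Prss41 and Gm19684 through FlipFlop libraries only, and Ddr1 through 6 B6 libraries and 1 FlipFlop library.

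**Figure D1:**
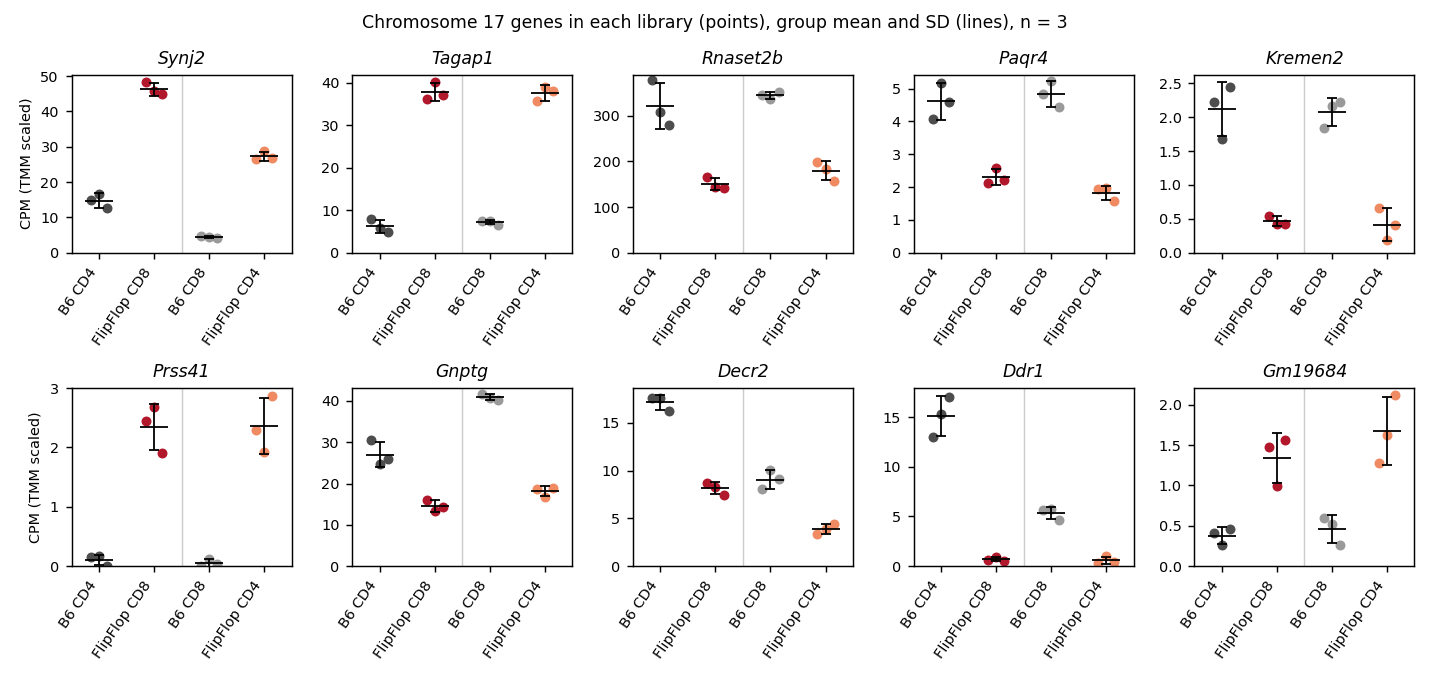
CPM of each of the 10 genes (vertical axes, CPM scaled by TMM, each starting at 0) in B6 CD4, FlipFlop CD8, B6 CD8 and FlipFlop CD4 T cells, with helper-lineage groups left and cytotoxic-lineage groups right of the grey line. Points are libraries, and black lines are the mean and SD of 3 libraries. In each panel the 3 FlipFlop libraries of a lineage lie all above or all below the 3 B6 libraries of that lineage.

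The proximal run begins with Synj2, which encodes synaptojanin 2, an inositol polyphosphate 5-phosphatase that acts in membrane traffic (chr17:5941280-6044290, plus strand, ENSMUSG00000023805.17). Synj2 was measured at 14.8, 16.8 and 12.7 CPM in B6 CD4 T cells and at 48.2, 45.6 and 44.8 CPM in FlipFlop CD8 T cells. In the cytotoxic lineage B6 CD8 T cells had 4.76, 4.36 and 4.17 CPM, and Synj2 was at 26.5, 28.7 and 26.7 CPM in FlipFlop CD4 T cells. All 6 FlipFlop libraries were above all 6 B6 libraries, and within each strain the helper-lineage cells had the higher level. The strain difference was +1.62 (SE 0.10) on the log2 scale in helper-lineage cells and +2.50 (SE 0.10) in cytotoxic-lineage cells, or 3.13 and 6.16 times the B6 mean. The 3' end of Synj2 overlaps Serac1 on the opposite strand by 2095 bases, and Serac1 had group means of 1.85 to 2.47 CPM.

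At the distal end of this run, Tagap1 and Rnaset2b lie head to head on opposite strands, with 9477 bases between the genes, and differed in opposite directions. Tagap1 (chr17:6955011-6961156, minus strand, ENSMUSG00000052031.8) is a close relative of Tagap, a T cell activation gene that encodes a GTPase-activating protein. Rnaset2b (chr17:6970634-7011299, plus strand, ENSMUSG00000094724.8) encodes a T2-type ribonuclease, an enzyme of lysosomes and secretions. Their upstream sequences are shown because they are the closest pair of members with opposite strain differences. Each is the 250 bases before the start of the gene in the RefSeq table for GRCm38.p6, Tagap1 at chr17:6961157-6961406 (minus strand) and Rnaset2b at chr17:6978610-6978859 (plus strand, inside the longer gene of the GENCODE annotation), 5' to 3', with capitals for motif matches on either strand.
Tagap1: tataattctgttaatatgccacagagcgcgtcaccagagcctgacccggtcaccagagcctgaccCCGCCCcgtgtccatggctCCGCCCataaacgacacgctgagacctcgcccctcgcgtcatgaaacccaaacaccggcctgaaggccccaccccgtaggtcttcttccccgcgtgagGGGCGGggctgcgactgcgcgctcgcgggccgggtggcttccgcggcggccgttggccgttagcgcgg
Rnaset2b: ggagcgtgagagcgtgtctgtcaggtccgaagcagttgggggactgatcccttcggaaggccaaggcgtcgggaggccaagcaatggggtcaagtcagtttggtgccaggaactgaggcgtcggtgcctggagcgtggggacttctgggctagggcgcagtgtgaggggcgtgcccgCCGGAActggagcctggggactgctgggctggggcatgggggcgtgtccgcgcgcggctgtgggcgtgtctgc

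The motifs searched, on both strands and with no overlap between their matches in these sequences, were the TATA box (TATAAA), the CCAAT box (CCAAT), the GC box (GGGCGG), an ETS core (CCGGAA), the AP-1 element (TGACTCA) and the E box (CACGTG). The Tagap1 sequence held 3 GC boxes, and the Rnaset2b sequence held 1 ETS core. Of 32851 RefSeq promoters of the same length, 32.7% held a GC box and 12.03% an ETS core. GC content was 67.2% and 68.0%, with 29 and 19 CpG dinucleotides, whereas the medians over all promoters were 52.4% and 6. A match is a run of letters and not a binding site. The sequences here and below are those of the reference assembly, and no FlipFlop sequence was examined. They therefore hold no comparison of the strains.

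Tagap1 was measured at 7.93, 5.89 and 4.92 CPM in B6 CD4 T cells and at 36.1, 40.2 and 37.1 CPM in FlipFlop CD8 T cells. In B6 CD8 T cells it was at 7.37, 7.49 and 6.61 CPM, and in FlipFlop CD4 T cells at 35.6, 39.1 and 38.02 CPM. The strains were far apart, and within each strain the libraries of the lineages overlapped. Expressed on the log2 scale, Tagap1 was higher in FlipFlop by 2.53 (SE 0.13) in the helper lineage and 2.32 (SE 0.13) in the cytotoxic lineage. Rnaset2b differed the other way, with 378, 308 and 279 CPM in B6 CD4 T cells and 166, 145 and 141 CPM in FlipFlop CD8 T cells. B6 CD8 T cells had 345, 337 and 352 CPM of Rnaset2b and FlipFlop CD4 T cells had 199, 183 and 157 CPM. FlipFlop means were 46.9% and 52.2% of the B6 means in the helper and the cytotoxic lineage, and the log2 differences were -1.08 and -0.94 (SE 0.11 for both).

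Both genes have a near-identical copy farther along chromosome 17, and their own values are uncertain for that reason. The Tagap1 transcript is 99.0% identical to Tagap (chr17:7926000-7934897) over 93.0% of its length, and the Rnaset2b transcript is 99.1% identical to Rnaset2a (chr17:8115445-8148097) over 100% of its length. Converted back to reads, the values of Tagap1 were whole numbers in 0 of 12 libraries and those of Rnaset2b in 1 of 12, whereas Synj2, Paqr4, Kremen2, Prss41, Gnptg, Decr2 and Ddr1 were whole in 12 of 12 and Gm19684 in 7 of 12. Rnaset2b also shares 32396 bases with Gm49721, a gene annotated on the same strand that is not in the table. Tagap1 shares 2186 bases with Gm49719, an antisense gene that is not in the table either.

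Summing each pair of copies reduced both strain differences without turning their direction. In the helper lineage, Tagap plus Tagap1 came to 97.8 ± 7.99 CPM in B6 and 115 ± 4.45 CPM in FlipFlop libraries (SD, n = 3), and in the cytotoxic lineage to 104 ± 6.79 CPM in B6 and 117 ± 6.24 CPM in FlipFlop libraries. On the log2 scale the sum was higher in FlipFlop by 0.24 and 0.17. The share of the sum assigned to Tagap1 went from 5.55 to 7.73% in B6 libraries to 31.5 to 33.5% in FlipFlop libraries. Rnaset2a plus Rnaset2b came to 456 ± 58.1 CPM (B6) and 299 ± 38.8 CPM (FlipFlop) in helper-lineage cells and to 494 ± 10.5 CPM (B6) and 373 ± 34.1 CPM (FlipFlop) in cytotoxic-lineage cells. The summed log2 difference was -0.61 in the helper lineage and -0.41 in the cytotoxic lineage, and Rnaset2b held 68.7 to 72.8% of the sum in B6 and 46.8 to 51.8% in FlipFlop libraries. The sums were added after the values of the single genes had been seen.

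**Figure D2:**
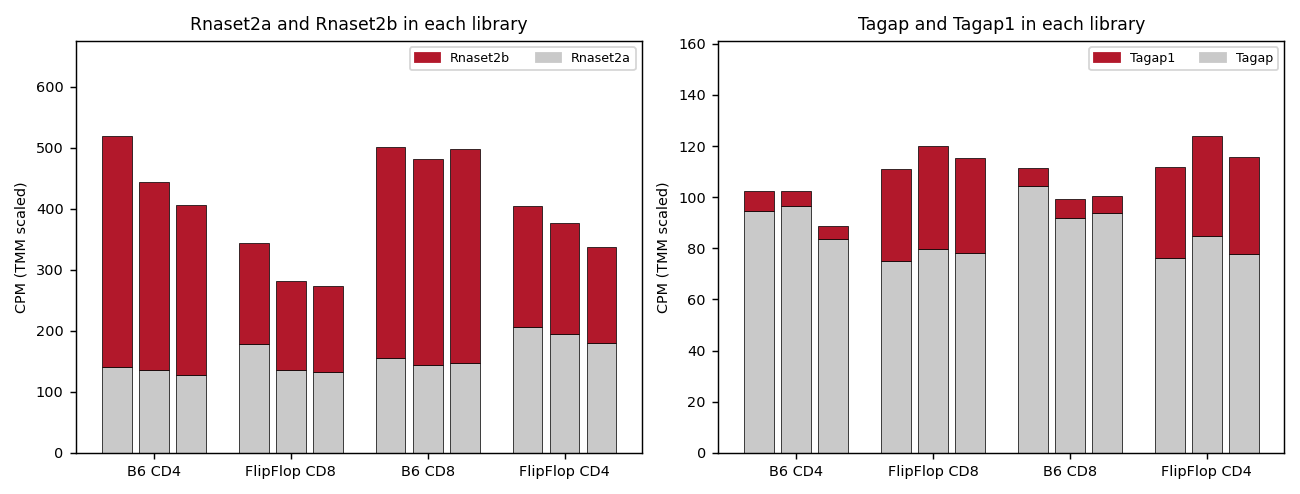
Stacked CPM (vertical axes, scaled by TMM) of Rnaset2a and Rnaset2b and of Tagap and Tagap1, with 1 bar per library in B6 CD4, FlipFlop CD8, B6 CD8 and FlipFlop CD4 T cells. The red share is the member of the set, which held 46.8 to 51.8% of the Rnaset2 sum and 31.5 to 33.5% of the Tagap sum in FlipFlop libraries.

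The middle run opens with Paqr4 and Kremen2, adjacent genes on the minus strand separated by 329 bases, which were both lower in FlipFlop T cells. Paqr4 (chr17:23736186-23740867, ENSMUSG00000023909.4) belongs to the progestin and adipoQ receptor family of multipass membrane proteins. Kremen2 (chr17:23741197-23745833, ENSMUSG00000040680.9) encodes a receptor that binds Dickkopf proteins and dampens Wnt signalling by removing the LRP5 and LRP6 coreceptors from the cell surface. Prss41 lies 90951 bases farther on the same strand (chr17:23836785-23844172, ENSMUSG00000024114.15), encodes a membrane-anchored serine protease and was higher in FlipFlop. The 250 bases before the RefSeq start of each of these 3 genes are shown because the first pair moved together and the third gene moved the other way, with capitals again for motif matches. They lie at chr17:23740331-23740580, chr17:23745830-23746079 and chr17:23844157-23844406, all on the minus strand. The Paqr4 sequence lies wholly inside the gene as GENCODE gives it, and the others overlap the GENCODE start of their gene slightly.
Paqr4: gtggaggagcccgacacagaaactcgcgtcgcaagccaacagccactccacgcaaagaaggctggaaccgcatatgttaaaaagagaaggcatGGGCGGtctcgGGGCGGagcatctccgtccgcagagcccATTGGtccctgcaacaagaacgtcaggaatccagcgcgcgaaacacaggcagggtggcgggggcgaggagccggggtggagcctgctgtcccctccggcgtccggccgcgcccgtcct
Kremen2: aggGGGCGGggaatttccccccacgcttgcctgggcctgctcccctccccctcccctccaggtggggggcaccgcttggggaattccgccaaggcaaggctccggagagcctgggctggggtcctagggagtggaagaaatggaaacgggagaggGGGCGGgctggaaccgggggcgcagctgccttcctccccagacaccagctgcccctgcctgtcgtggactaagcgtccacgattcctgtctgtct
Prss41: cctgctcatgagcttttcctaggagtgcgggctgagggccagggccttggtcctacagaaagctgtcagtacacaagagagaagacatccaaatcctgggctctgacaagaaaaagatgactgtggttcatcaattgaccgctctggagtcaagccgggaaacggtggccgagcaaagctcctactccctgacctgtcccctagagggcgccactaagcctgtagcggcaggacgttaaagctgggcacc

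The Paqr4 sequence held 2 GC boxes and 1 CCAAT box, the Kremen2 sequence 2 GC boxes and the Prss41 sequence none of the motifs, while 33.8% of all promoters held a CCAAT box. CpG dinucleotides numbered 24, 12 and 8. Of the other members, Decr2 had 2 GC boxes, each of the 2 Gnptg entries had 2 ETS cores and 1 of them an E box, and the 2 Synj2 entries had none of the motifs. Ddr1 has 4 entries, of which 3 held 1, 1 and 3 GC boxes and 1 of these also an AP-1 element, while 4.46% of all promoters held an AP-1 element and 6.02% an E box. No entry was found for Gm19684, so that 9 of 10 members matched.

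Paqr4 was measured at 4.06, 5.16 and 4.60 CPM in B6 CD4 T cells and at 2.12, 2.58 and 2.20 CPM in FlipFlop CD8 T cells. B6 CD8 T cells had 4.83, 5.24 and 4.44 CPM, and FlipFlop CD4 T cells 1.94, 1.96 and 1.56 CPM. FlipFlop levels were 49.9% and 37.6% of the B6 mean, differences of -0.86 and -1.20 on the log2 scale (SE 0.13). Kremen2 was low in all libraries, at 2.22, 1.68 and 2.45 CPM in B6 CD4 T cells and 0.546, 0.430 and 0.429 CPM in FlipFlop CD8 T cells. In B6 CD8 T cells it stood at 1.84, 2.16 and 2.22 CPM, compared with 0.657, 0.181 and 0.409 CPM in FlipFlop CD4 T cells. These levels rest on 49 to 80 reads per B6 library and 5 to 20 reads per FlipFlop library, and the log2 differences were -1.42 and -1.52 (SE 0.20). Paqr4 overlaps Pkmyt1, on the opposite strand, by 550 bases, and Pkmyt1 had log2 differences of -0.44 and -0.71. Kremen2 overlaps the antisense gene 9530082P21Rik, which is not in the table, by 2600 bases.

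Prss41 reads were close to absent in B6 T cells. The 3 B6 CD4 libraries held 4, 5 and 0 reads and the 3 B6 CD8 libraries 0, 3 and 1, against 76, 81 and 67 reads in FlipFlop CD8 and 70, 53 and 77 in FlipFlop CD4 T cells. Summed over libraries, the ratio of FlipFlop to B6 reads, corrected for library size, was 23.3 (exact 95% interval 12.1 to 51.6) in the helper and 48.2 (18.5 to 179) in the cytotoxic lineage, intervals that cover counting error only. In CPM the FlipFlop libraries had 1.91 to 2.86 and the B6 libraries 0 to 0.161. The fitted log2 differences of +2.24 and +2.37 depend on the pseudocount and became 3.70 and 4.09 with a pseudocount of 0.1. Of 6 marker genes of mast cells and basophils, cells rich in serine proteases, 0 were in the table, and of 19 related proteases 1 was (Prss30).

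The other end of the middle run holds Gnptg and Decr2, enzymes of different organelles, both lower in FlipFlop T cells. Gnptg (chr17:25233331-25240124, minus strand, ENSMUSG00000035521.13) encodes the gamma subunit of the phosphotransferase that starts the mannose 6-phosphate tag of lysosomal enzymes. It was measured at 30.4, 24.7 and 25.9 CPM in B6 CD4 T cells and at 15.97, 13.2 and 14.4 CPM in FlipFlop CD8 T cells. For B6 CD8 T cells the values were 41.8, 40.7 and 40.3 CPM, compared with 18.7, 16.8 and 19.0 CPM in FlipFlop CD4 T cells. The lowest B6 library was thus above the highest FlipFlop library across lineages, and the log2 differences were -0.87 and -1.15 (SE 0.09). Gnptg shares 1113 bases, or 49.5% of its transcript, with Unkl on the opposite strand. Unkl averaged 37.1 CPM (B6) and 44.05 CPM (FlipFlop) in the helper lineage and 43.0 and 38.3 CPM in the cytotoxic lineage, and without a stated strand setting the reads of the shared bases cannot be divided between the genes.

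Decr2 (chr17:26081208-26090337, minus strand, ENSMUSG00000036775.13) encodes the peroxisomal dienoyl-CoA reductase, which helps to break down unsaturated fatty acids. Its level was 17.6, 17.6 and 16.3 CPM in B6 CD4 T cells and 8.74, 8.30 and 7.49 CPM in FlipFlop CD8 T cells. The cytotoxic-lineage cells had less, with 8.09, 10.0 and 9.08 CPM in B6 CD8 and 3.32, 3.88 and 4.35 CPM in FlipFlop CD4 T cells. FlipFlop CD8 T cells thus overlapped B6 CD8 T cells, although each strain pair of the same lineage was separate. FlipFlop levels were 47.7% and 42.5% of the B6 mean of their lineage, with log2 differences of -1.03 and -1.14 (SE 0.11).

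The distal run lies in the H2 complex and begins with Ddr1, which was lower in FlipFlop T cells of both lineages. Ddr1 (chr17:35681567-35704621, minus strand, ENSMUSG00000003534.17) encodes a discoidin domain receptor, a tyrosine kinase that is activated by collagen and is known mainly from epithelial cells. B6 CD4 T cells had 13.0, 15.3 and 17 CPM and FlipFlop CD8 T cells 0.643, 0.926 and 0.486 CPM. B6 CD8 T cells had 5.65, 5.72 and 4.61 CPM and FlipFlop CD4 T cells 0.328, 1.01 and 0.372 CPM. The FlipFlop levels rest on 10 to 28 reads per library, above the floor of 3 reads, and B6 means were 22.05 and 9.32 times the FlipFlop means, the second of which became 15.2 without FlipFlop CD4 replicate 2. The log2 differences were -3.73 and -2.49 (SE 0.22). Ddr1 overlaps the antisense gene Gm4577, which is not in the table, by 726 bases. Epithelial markers, of which 3 of 4 were in the table and Krt8 was not, summed to 4.29 to 5.16 CPM (B6) and 4.37 to 5.69 CPM (FlipFlop) in the helper lineage and to 7.65 to 11.7 CPM (B6) and 2.57 to 3.68 CPM (FlipFlop) in the cytotoxic lineage. The higher B6 CD8 sum came from Cdh1, which averaged 1.19, 0.931, 8.63 and 1.58 CPM in this order. Epcam averaged 3.20, 3.64, 1.58 and 1.54 CPM, and Krt18 reached at most 0.514 CPM in any library. The part of epithelial cells in the Ddr1 level was not tested.

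Gm19684 closes the distal run as an annotated protein-coding gene without an assigned function (chr17:36121678-36129692, plus strand, ENSMUSG00000092277.1). It had 0.413, 0.258 and 0.460 CPM in B6 CD4 and 1.47, 0.993 and 1.57 CPM in FlipFlop CD8 T cells. In B6 CD8 T cells it had 0.599, 0.520 and 0.258 CPM and in FlipFlop CD4 T cells 1.28, 1.63 and 2.12 CPM. No library exceeded 57 reads, the FlipFlop means were 3.57 and 3.65 times the B6 means, and the log2 differences were +1.07 and +1.18 (SE 0.21), the first of which became 1.60 with a pseudocount of 0.1. The value is uncertain because 7748 bases of the gene overlap Gm7030 on the opposite strand and its transcript is 96.7% identical to Gm6034, neither of which is in the table.

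Other genes lie between the members of each run, and their strain differences were counted with the members left out. Nothing is read from these counts about the runs, since the runs were picked on the same comparison. Of 99 such tested genes, 45 had an adjusted p under 0.05 (limma, over all tested genes) in the helper lineage, 13 higher and 32 lower in FlipFlop, beside 27.6% of all tested genes. In the cytotoxic lineage 33 passed, 11 higher and 22 lower, beside 7.92% of all tested genes. Both lineages in the same direction were reached by 27 genes (27.3%), 8 higher and 19 lower, beside 5.42% of the 498 tested genes on the rest of chromosome 17 and 3.92% of all tested genes. By run these were 3 of 13, 19 of 67 and 5 of 19 genes. Over 5-fold on the log2(CPM + 0.5) scale with an unadjusted p under 0.0001 were 2 of the 99 genes in the helper and 4 in the cytotoxic lineage, beside 0.405% and 0.474% of all tested genes. Genes with low values can miss this limit although their CPM differ by more than 5-fold.

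**Figure D3:**
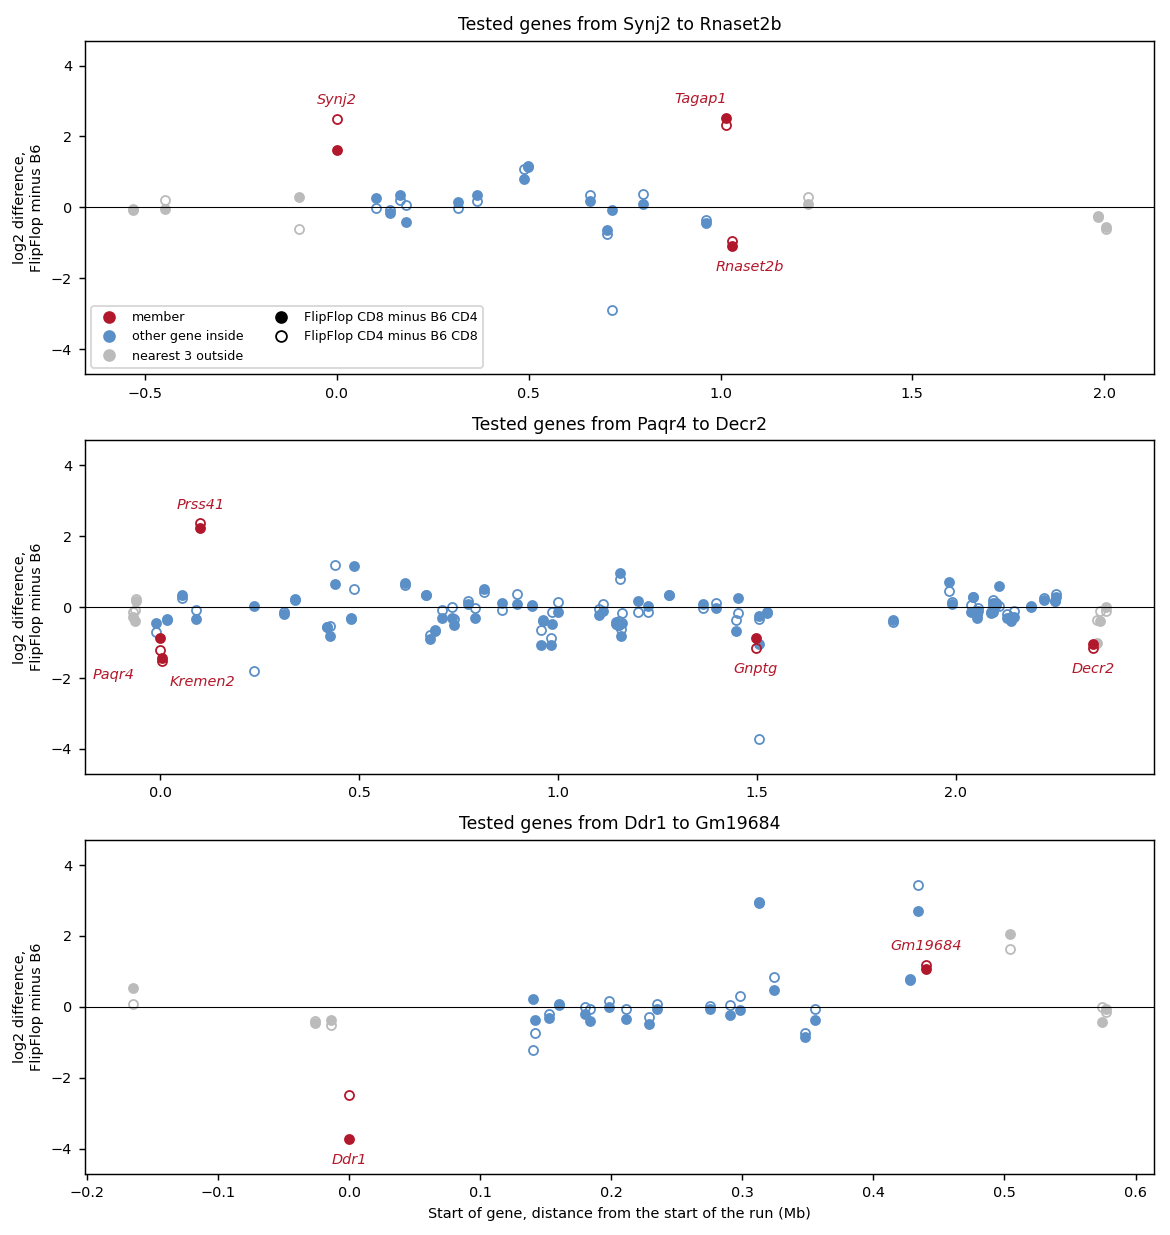
Strain difference (vertical axes, FlipFlop minus B6 on the log2(CPM + 0.5) scale) of each tested gene against the distance of its start from the start of the run (horizontal axes, Mb), for the runs from Synj2 to Rnaset2b, Paqr4 to Decr2 and Ddr1 to Gm19684. Filled points are the helper and open points the cytotoxic lineage. Red points are the 10 members, blue points the other genes inside a run and grey points the nearest 3 outside. Some blue points lie near 0, and others lie as far from 0 as members or farther, such as H2-T10 (2.69 and 3.44) near Gm19684.

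In the proximal run, Dynlt1b, which encodes a dynein light chain, was higher in FlipFlop by 0.81 and 1.07 on the log2 scale, and the pseudogene Tmem181b-ps by 1.14 and 1.18. Dynlt1f, another dynein light chain gene of the run, had differences of -0.64 and -0.75. Dynlt1a and Dynlt1c also lie in this run, and how reads were divided among these related genes was not tested. Sytl3, a synaptotagmin-like gene, averaged 26.9 CPM (B6) and 3.17 CPM (FlipFlop) in the cytotoxic lineage and 3.09 CPM (B6) and 4.09 CPM (FlipFlop) in the helper lineage. The last mean rests on FlipFlop CD8 replicate 1, at 9.22 CPM, and was 1.52 CPM without it. The nearest tested genes beyond Rnaset2b were Rps6ka2, a kinase gene with differences of 0.11 and 0.31, Tagap, and Rsph3a with -0.56 and -0.60.

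In the middle run, Rps2, the gene of a small ribosomal subunit protein, averaged 2996 CPM (B6) and 1425 CPM (FlipFlop) in the helper lineage and 3584 CPM (B6) and 1952 CPM (FlipFlop) in the cytotoxic lineage. Rnps1, a splicing factor gene (-0.89 and -0.78), Gfer, which acts in mitochondrial protein import (-1.08 and -0.65), Eci1, an isomerase of fatty acid oxidation (-0.69 and -0.65), and Atp6v0c, a proton pump subunit gene (-0.82 and -0.53), were also lower in FlipFlop. Abca3, a lipid transporter gene (0.68 and 0.61), and Mapk8ip3, a kinase scaffold gene (0.95 and 0.81), were higher. Baiap3 had unlike differences in the lineages, -1.05 in the helper and -3.73 in the cytotoxic lineage. Directly beside Decr2, Nme4, a mitochondrial nucleoside kinase gene, had -1.01 and -0.38.

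In the distal run, the genes with differences near Gm19684 included class I genes of the H2 complex. H2-T10, annotated as a polymorphic pseudogene, averaged 20.4 CPM (B6) and 135 CPM (FlipFlop) in the helper lineage, and 16.3 and 182 CPM in the cytotoxic lineage. H2-T23, which encodes the nonclassical class I protein Qa-1, differed the other way, with 498 and 274 CPM in the helper and 518 and 310 CPM in the cytotoxic lineage. The antisense transcript A930015D03Rik was higher in FlipFlop by 2.92 and 2.97 on the log2 scale, from B6 means of 0.532 and 0.599 CPM. H2-T3, just beyond Gm19684, was at 0 to 0.120 CPM in B6 and 0.967 to 1.86 CPM in FlipFlop libraries. H2 genes are polymorphic and similar to each other in sequence, so that their values depend on how reads were assigned. Directly beside Ddr1, Gtf2h4, a subunit gene of a general transcription factor, had differences of -0.38 and -0.50.

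**Figure D4:**
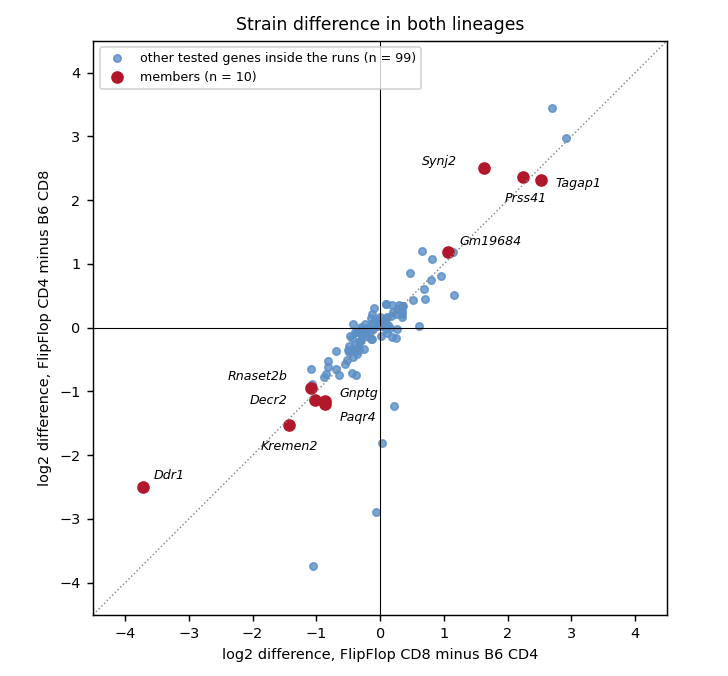
Strain difference in the helper lineage (horizontal axis, FlipFlop CD8 minus B6 CD4) against that in the cytotoxic lineage (vertical axis, FlipFlop CD4 minus B6 CD8), both on the log2(CPM + 0.5) scale, with a dotted line of equal values. Red points are the 10 members, 4 upper right and 6 lower left, and blue points are the 99 other tested genes inside the runs.

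Whether the members differ between the lineages was not used to choose them and was tested. The lineage effect is the mean difference between helper-lineage and cytotoxic-lineage cells over both strains, so that strain is balanced. It passed an adjusted p under 0.05 for 4 of 10 members (limma, Benjamini-Hochberg adjustment over all 11595 tested genes), beside 39.3% of all tested genes. Synj2 (+1.19, SE 0.07, adjusted p = 4.08e-08), Decr2 (+0.95, SE 0.08, adjusted p = 1.15e-06) and Ddr1 (+0.80, SE 0.16, adjusted p = 0.00143) were higher in helper-lineage cells. Gnptg was higher in cytotoxic-lineage cells (-0.45, SE 0.07, adjusted p = 0.000154). The Ddr1 effect came mostly from B6 cells, with a CD4 minus CD8 difference of 1.42 beside -0.18 in FlipFlop cells. The remaining members had effects between -0.18 and +0.10. For Rnaset2b, the closest to the threshold (-0.18, SE 0.08, adjusted p = 0.0977), the adjusted p was 0.0272 with a replicate block by number and 0.0422 with a block by strain and number. Leaving out B6 CD4 replicate 1 gave adjusted p-values of 0.0107 for Rnaset2b and 0.0325 for Tagap1, and leaving out FlipFlop CD4 replicate 3 gave 0.0419 for Rnaset2b.

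Taken by strain, the CD4 minus CD8 differences share libraries with the strain comparisons that chose the members, and they are given as descriptions, with no test. In B6 mice they were +1.62 (SE 0.10) for Synj2, +0.89 (SE 0.11) for Decr2, -0.60 (SE 0.09) for Gnptg and +1.42 (SE 0.22) for Ddr1. In FlipFlop mice, whose CD8 T cells are the helper-lineage cells, the differences had the opposite sign for Synj2 (-0.75, SE 0.10), Decr2 (-1.001, SE 0.11) and Gnptg (+0.31, SE 0.09). Ddr1 in FlipFlop cells had -0.18 (SE 0.22), at levels of 10 to 28 reads per library. For Synj2, Decr2 and Gnptg the lineage with the higher mean was thus the same in both strains.

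The coreceptor effect, the mean difference between CD4 and CD8 T cells over both strains, equals the strain difference in the cytotoxic lineage minus that in the helper lineage, divided by 2. It is computed from the values that chose the members and is therefore a description as well. For Synj2 it was +0.44 (SE 0.07), as the strain difference was +1.62 in the helper and +2.50 in the cytotoxic lineage. For Ddr1 it was +0.62 (SE 0.16), with strain differences of -3.73 and -2.49. The other 8 members had effects between -0.17 and +0.07. An adjusted p under 0.05 was reached by 2 of 10 members, Synj2 and Ddr1, beside 5.49% of all tested genes, and nothing is read from this count.

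**Figure D5:**
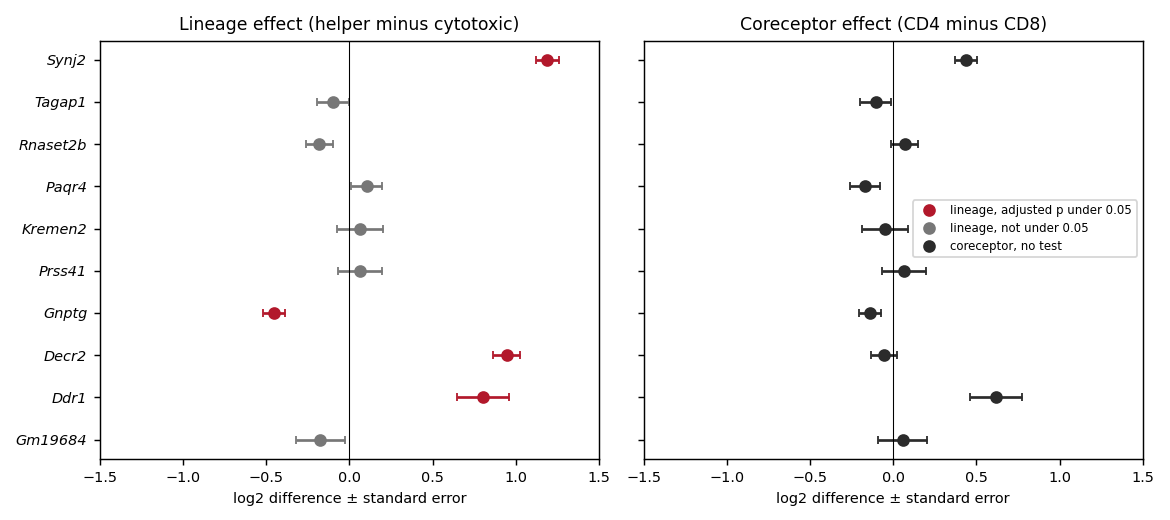
Lineage effect (left, helper minus cytotoxic) and coreceptor effect (right, CD4 minus CD8) of the 10 members, as log2(CPM + 0.5) differences (horizontal axes) with standard errors, from all 12 libraries. On the left, red marks an adjusted p under 0.05, which 4 members reached, and grey the others. On the right, the dark points are descriptions, and Synj2 and Ddr1 lie farthest from 0.

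The relatives and pathway partners of the members, from lists made by function, were tested in the strain comparisons. Of 60 listed genes 32 were in the table, and 30 were tested and lay outside the runs. In the helper lineage 3 were higher and 4 lower in FlipFlop, beside 27.6% of all tested genes, and in the cytotoxic lineage 1 was higher (Rnaset2a) and 1 lower (Tagap), beside 7.92%. Tagap is also among the 4 lower genes of the helper lineage. Both are near-identical copies of members, so that their calls are not separate from the choice of the members. The partner of Gnptg in its enzyme, Gnptab, was 0.10 and 0.09 higher, not past the threshold (adjusted p = 0.601 and 0.750), and 0 of the 4 genes of the mannose 6-phosphate tag passed in either lineage by limma (1 and 0 at an unadjusted p under 0.05). Of the Kremen2 partners tested, Kremen1, Lrp5 and Lrp6, 0 of 3 passed by limma (0 at an unadjusted p under 0.05), and of 3 listed Dickkopf genes Dkk3 alone was in the table, left out by the filter. In the PAQR family, Paqr3 (+0.91, adjusted p = 0.000895) and Mmd (+0.57, adjusted p = 0.000583) rose and Paqr7 (-0.31, adjusted p = 0.00395) fell in FlipFlop helper-lineage cells, on other chromosomes than Paqr4.

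Among the inositol 5-phosphatases related to Synj2, Inppl1, which encodes SHIP2, rose (+0.85, adjusted p = 0.00617) and Inpp5b fell (-0.31, adjusted p = 0.0143) in FlipFlop helper-lineage cells, whereas Synj1 had +0.33 (adjusted p = 0.116). Of 8 fatty acid oxidation genes tested with Decr2, Acaa1a, a peroxisomal thiolase gene, fell in the helper lineage (-0.33, adjusted p = 0.0213). Tagap was lower in FlipFlop in both lineages (-0.23 and -0.28, adjusted p = 0.0394 and 0.0437), and Rnaset2a was higher in the cytotoxic lineage (+0.37, adjusted p = 0.0484) with +0.13 in the helper lineage (adjusted p = 0.352). Both are the near-identical copies described above, each with the opposite sign to its partner, and both cytotoxic-lineage calls were lost on leaving out any one of 8 libraries: B6 CD4 replicate 2, FlipFlop CD8 replicate 2, or any replicate of B6 CD8 or FlipFlop CD4 T cells. Converted back to reads, Tagap was whole in 0 of 12 libraries and Rnaset2a in 1. Their reads may have been divided with members chosen on this same comparison, so that nothing is read from their adjusted p-values. Ddr2 and the 3 collagen genes listed with Ddr1 were not in the table.

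Genes outside the set with the most similar pattern over the 12 libraries were found by the correlation of their log2(CPM + 0.5) with the mean standardised level of the members, which describes a likeness between libraries that share strain and age. For the 4 members higher in FlipFlop these were Atp6v0c-ps2 and Gm9825 on chromosome 6, Gm4864 on chromosome 12, Tmem181b-ps inside the proximal run and Gm14292 on chromosome 2 (Pearson r of 0.986 to 0.989, n = 12), all annotated as pseudogenes. For the 6 members lower in FlipFlop they were Gm43778, Pnrc2, Eps8l1, Gas5 and Fam169b (r of 0.967 to 0.983, n = 12), on chromosomes 5, 4, 7, 1 and 7. Pnrc2, an mRNA decay factor gene, averaged 142 CPM in both B6 groups and 77.9 and 79.9 CPM in the FlipFlop groups. Of these 10 genes, 1 lies on chromosome 17.

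Marker genes of other cells were summed to give the levels beside those of the members. B cell markers, all 6 in the table, summed to 47.8 to 61.2 CPM (B6) and 36.8 to 39.0 CPM (FlipFlop) in the helper lineage, and to 48.5 to 67.5 CPM (B6) and 35.8 to 55.7 CPM (FlipFlop) in the cytotoxic lineage. NK cell markers, without Ncr1, which was not in the table, summed to 11.2 to 13.9, 23.1 to 39.3, 70.7 to 87.1 and 47.4 to 95.8 CPM in the same order. Eomes, which the paper counts among cytotoxic-lineage genes of T cells, gave most of the cytotoxic-lineage sums. It averaged 7.11, 13.5, 69.1 and 64.9 CPM in this order. Klrb1c averaged 3.52, 10.8, 2.18 and 1.82 CPM, Klrk1 1.33, 3.75, 5.03 and 0.920 CPM, and Gzma 0.833, 2.21, 2.93 and 1.64 CPM. Myeloid markers (5 of 6) came to 19.5 to 29.4, 15.6 to 27.3, 8.20 to 21.1 and 6.54 to 8.85 CPM, and red blood cell genes (3 of 4) to 15.2 to 21.5, 6.58 to 10.4, 12.04 to 19.0 and 4.26 to 10.7 CPM. The stromal list had 2 of 5 genes in the table, of which Pecam1 gave nearly all of the 112 to 186 CPM and Col1a2 at most 0.486 CPM. In the helper lineage, the B cell and red blood cell sums were thus lower and the NK cell sum higher in FlipFlop than in B6 libraries, without overlap, although Cd79b, a B cell receptor gene, averaged 14.9 CPM (B6) and 15.6 CPM (FlipFlop). In the cytotoxic lineage the red blood cell sum was lower in FlipFlop and the Pecam1-led stromal sum higher (112 to 121 CPM in B6 and 154 to 165 CPM in FlipFlop), without overlap, whereas the B cell, NK cell and myeloid sums overlapped. Col1a2, the other stromal gene in the table, overlapped there, with 0.0374 to 0.0800 CPM (B6) and 0 to 0.0744 CPM (FlipFlop). The part of these cells in the levels of the members was not tested.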

How the data were processed

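Total RNA of sorted LN T cells was made into 12 libraries, 3 per group. The authors aligned the reads to mm10, with STAR in the study's methods and Trimmomatic and TopHat in the submitters' processing notes. The counting program, its strand setting, the annotation and the filter are not given in the sources used here. The authors deposited 1 table of normalized signal (CPM scaled by TMM). All 12809 identifiers matched GENCODE M21 (GRCm38). Whole reads made up 85.0% to 86.5% of values under 100 CPM (tolerance 0.01 read), so no count test was run.

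A gene was tested where 3 or more libraries reached 1 CPM (11595 genes). The model was limma 3.58.1 in R 4.3.3 (lmFit, then eBayes with a trend) on log2(CPM + 0.5), with a mean for each group, all libraries, and a Benjamini-Hochberg threshold of 0.05 over these genes. Its lineage effect alone was tested on simulated data, with planted changes and independent normal noise in each library. Those data held no counting error and no deviations shared between libraries, and the strain comparisons were not checked in them. The coreceptor effect was fitted as a test but is given as a description, since it is computed from the strain differences that chose the members. Transcripts were compared with blastn 2.17.0. The members, lists and runs were chosen with earlier results of these data known. The text names the members, relatives that passed or are the closest copy of a member, and the 5 genes most similar to each pattern. It also names some of the genes inside a run or among the nearest 3 beside it that passed in a strain comparison or adjoin a member. Others that passed are not named in the Results, such as Snx9 beside Synj2, Flot1 and H2-T-ps. Gnptab, Synj1 and the Kremen2 partners are on the lists, but the choice to name them in the text was made after their values were seen.

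As a check of the replicate numbers, deviations from the group mean were correlated between the CD4 and the CD8 library of each number. The 3 correlations were 0.443, 0.271 and 0.513 in FlipFlop, each over 0.1, beside -0.379 to -0.0368 between libraries of unlike number. In B6 they were 0.184, 0.0887 and 0.352, beside -0.348 to 0.155. Deviations from a group mean cancel out within a group, so that these correlations depend on each other and do not establish pairing. The sources do not say what a number shares, and the main fit used no replicate block. Alternatives were pseudocounts of 0.1 and 1, no filter, a mean of at least 5 CPM, median-of-ratios scaling, no TMM factor, replicate blocks, other limits of the runs and each library left out.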

Additional observations from a re-analysis of the deposited data

Results flagged for a closer look

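Each of the following compares the effect in 1 group with that in another and passed its test (limma, adjusted p under 0.05 over all tested genes). The CD4 minus CD8 difference in B6 minus that in FlipFlop mice was 2.37 for Synj2, 1.89 for Decr2, 1.60 for Ddr1 and -0.91 for Gnptg. These are the lineage effects multiplied by 2, since the coreceptors are exchanged between the lineages of the 2 strains. No group had the 4 samples that a check for single outlying libraries needs.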

How the results depend on the processing

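The members kept their direction in both strain comparisons under every alternative, each library left out included, and 10 of 10 stayed without overlap except among genes averaging at least 5 CPM, where 6 members remained in either lineage because 4 were removed. Without the TMM factor the median over all genes moved by 0.164 in the helper lineage, 0.0571 in the cytotoxic lineage and 0.120 for the lineage effect. The number of members under an adjusted p of 0.05 for the coreceptor effect, a description of 2, became 1 with a pseudocount of 0.1, with genes averaging at least 5 CPM and without the TMM factor, and was 1 to 2 with a library left out, Ddr1 being the one lost (without B6 CD4 replicate 2 or 3, FlipFlop CD8 replicate 1 or 3, any B6 CD8 replicate or FlipFlop CD4 replicate 2). The lineage count was 4 to 6 with a library left out and 5 with either replicate block, which added Rnaset2b, and the blocks moved no other member across the threshold for the lineage or the coreceptor effect. Inside the runs, 2 genes in the helper and 4 in the cytotoxic lineage passed over 5-fold with an unadjusted p under 0.0001, 22 and 16 of 59 passed when only members under 1 Mb apart were joined, and 33 to 50 and 26 to 43 with a library left out. The relatives, whose alternatives were chosen after seeing the data, gave 12 calls in the helper lineage without the TMM factor and 4 to 9 with a library left out, the 4 being without FlipFlop CD8 replicate 2. In the cytotoxic lineage they gave 1 without the TMM factor, 1 among genes averaging at least 5 CPM and 0 to 6 with a library left out, the 6 being without B6 CD4 replicate 1. The cause of these changes was not tested. Values under 1 CPM rest on few reads, which limits Kremen2, Prss41, Ddr1 and Gm19684 in the strain where they are low.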

Other observations

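Atp6v0c inside the middle run and the processed pseudogene Atp6v0c-ps2 on chromosome 6 had opposite strain differences. Atp6v0c averaged 195 CPM (B6) and 109.5 CPM (FlipFlop) in the helper lineage and 162 and 112 CPM in the cytotoxic lineage. Atp6v0c-ps2 was at 0.124 to 0.674 CPM in B6 and 25.1 to 30.0 CPM in FlipFlop libraries. How reads were divided between the gene and its copy was not tested.

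Inside the runs, 4 genes, chosen after their values were seen, had larger values in B6 CD8 T cells than in the other groups. Sytl3 was at 25.4 to 29.7 CPM there and at 1.33 to 9.22 CPM in the libraries of the other groups, and Baiap3 averaged 19.1 CPM there and 0.986 to 2.86 CPM elsewhere. Ier3, an early response gene, averaged 2.45 CPM there and 0.129 to 0.769 CPM elsewhere. Prss30, a serine protease gene related to Prss41, was at 1.0805 to 1.46 CPM in B6 CD8 libraries, 0 to 0.0323 CPM in B6 CD4, 0 to 0.0321 CPM in FlipFlop CD8 and 0 CPM in all 3 FlipFlop CD4 libraries, which allows up to the floor of 0.0985 to 0.112 CPM.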
